A study of Mus musculus with 4 samples.

Results

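The loci of 10 genes whose chromatin is more open in white than in beige adipocytes were examined in mouse inguinal white adipose tissue (iWAT). They were Opn3, Gpt2, Alcam, Cmip, Trhde, Tenm4, Ptchd4, Wfdc21, Lrp3 and Ccnd2, 10 of the 19778 protein-coding genes with a peak in their locus. The genes were chosen by their higher accessibility in white than in beige adipocytes of these same mice, so the white and beige levels are given as a description with no test. A locus was the gene body plus 50 kb on either side, and it was given every peak that overlaps it. The 10 loci held 394 peaks, with no peak in 2 of them, from 14 at Ptchd4 to 134 at Tenm4.

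The genes lie on 8 chromosomes of mm10, with positions from the GENCODE vM21 annotation. The longest are Tenm4 (chr7:96171246-96911093, + strand) and Trhde (chr10:114398823-114802307, - strand), followed by Alcam (chr16:52248996-52454074, - strand), Cmip (chr8:117257064-117459430, + strand) and Ptchd4 (chr17:42315947-42505077, + strand). The shorter ones are Gpt2 (chr8:85492576-85527560, + strand), Opn3 (chr1:175662421-175692776, - strand), Ccnd2 (chr6:127125162-127152193, - strand), Lrp3 (chr7:35200027-35215498, - strand) and Wfdc21 (chr11:83746940-83752642, + strand), and more of their peaks lie outside the gene. No other protein-coding gene reaches into the Trhde and Ptchd4 loci. The Opn3 locus takes in Fh1, Kmo, Chml and Wdr64, the Wfdc21 locus Wfdc17, Wfdc18 and Heatr6, and the Lrp3 locus Slc7a10, so the sums there cannot be credited to one gene.

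White adipocytes store energy as triglyceride in a single large lipid droplet and release fatty acids when other tissues need them. Beige adipocytes appear within white depots in the cold or after β-adrenergic stimulation, carry many mitochondria and small droplets, and release energy as heat through uncoupling protein. Open chromatin marks promoters and enhancers that proteins can reach, so a locus that is open in one of these cells and closed in the other is a candidate for regulation that separates them, although accessibility is not the same as transcription. The 10 genes belong to no single pathway. Alcam encodes an adhesion molecule of the immunoglobulin family, Tenm4 a teneurin, Lrp3 a member of the low-density lipoprotein receptor family, Ptchd4 a membrane protein with a patched domain, and Opn3 an opsin, a G protein-coupled receptor. Gpt2 encodes the mitochondrial alanine aminotransferase, and Trhde the ectoenzyme that degrades thyrotropin-releasing hormone. Wfdc21 encodes a secreted protein with a WAP domain, Ccnd2 the cell cycle protein cyclin D2, and Cmip an adaptor of intracellular signalling.

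Single-nucleus ATAC-seq, in which a transposase cuts accessible DNA, was performed on iWAT of 21 male C57BL/6 mice aged 8 weeks, 3 in each of 7 groups. The day 0 group stayed at room temperature (22 °C). The cold groups spent 1, 3 or 7 days at 6.5 °C, and the other groups received the β3-adrenergic agonist CL-316,243 (CL, 1 mg/kg) for 1, 3 or 7 days. In the deposited matrix a value of 1 marks a nucleus with reads in a peak, and the entries of a mouse were added up within each annotated cell type and divided by their total to give counts per 1e6 entries (CPM). CPM therefore measures the share of a cell type's open peaks, and a change in one locus cannot be told apart from an opposite change in the rest.

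The matrix held 32552 nuclei, of which 5935 (18.2%) were annotated as white adipocytes and 1069 (3.28%) as beige adipocytes. A mouse had 23 to 847 white nuclei with 44198 to 3655538 entries, and the fewest came from day 1 CL mouse 1, whose values are the least precise. Beige nuclei numbered at least 10 in 19 mice, with 1 mouse in the day 1 CL group. The median entries per white nucleus ranged from 1429 at day 1 CL to 3557 at day 7 CL, against 1920 at day 0, so calls were repeated in nuclei with at least 2000 entries. The summed level of the 6 adipocyte markers (Adipoq, Pparg, Plin1, Cidec, Lipe and Fabp4) was 1486 CPM in white and 1463 CPM in beige adipocytes, against 634 CPM in the next cell type, vascular endothelial cells (VEC). The 5 thermogenic markers summed to 498 CPM in white and 989 CPM in beige adipocytes, with 897 CPM in the cluster labelled VSMC. The cluster labelled VSMC went against its label, with 1060 CPM over 5 skeletal muscle markers against 51.1 to 108 CPM elsewhere, and it is called the cluster labelled VSMC here. Of 28031 distinct barcodes, 4218 occurred in more than one mouse, and all 4824 shared pairs joined mice of the same stimulus and replicate number at different days.

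In each locus the leading peak is the one with the largest white minus beige CPM, by means over all mice, treated ones included. Sequences are shown for the leading peaks of Opn3, Alcam, Gpt2, Ptchd4 and Lrp3 and for another Lrp3 peak. They are a selection, and larger differences occur among the peaks not printed. The Opn3, Alcam and Gpt2 leading peaks are intronic, as is that of Ptchd4, and the Lrp3 leading peak is intergenic, 58343 bases from the Lrp3 start and nearest to the start of the amino acid transporter gene Slc7a10. The last sequence is a peak in the Lrp3 gene body that was lower after CL, as described further on. Each is the central 300 bases of the peak on the + strand of mm10, 5′ to 3′, in lower case, and capitals mark matches to any of the motif letters ACANNNTGT (the NR3C core, bound by steroid receptors such as the glucocorticoid receptor), TTGCNNAA (C/EBP), CCCNNGGG (EBF) and TCAAGGTCA (ESRR), searched on both strands.
Opn3, chr1:175674016-175674315: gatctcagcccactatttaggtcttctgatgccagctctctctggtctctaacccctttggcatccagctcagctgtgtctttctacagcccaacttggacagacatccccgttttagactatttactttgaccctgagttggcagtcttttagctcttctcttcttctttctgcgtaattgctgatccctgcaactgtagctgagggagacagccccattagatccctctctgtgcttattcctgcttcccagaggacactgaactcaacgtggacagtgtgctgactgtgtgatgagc
Alcam, chr16:52371786-52372085: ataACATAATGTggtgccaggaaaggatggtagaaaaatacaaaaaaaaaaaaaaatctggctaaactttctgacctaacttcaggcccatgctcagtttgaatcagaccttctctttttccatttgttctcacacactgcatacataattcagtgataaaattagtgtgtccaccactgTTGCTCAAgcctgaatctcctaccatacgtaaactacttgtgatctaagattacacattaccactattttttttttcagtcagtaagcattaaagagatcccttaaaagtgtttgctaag
Gpt2, chr8:85515414-85515713: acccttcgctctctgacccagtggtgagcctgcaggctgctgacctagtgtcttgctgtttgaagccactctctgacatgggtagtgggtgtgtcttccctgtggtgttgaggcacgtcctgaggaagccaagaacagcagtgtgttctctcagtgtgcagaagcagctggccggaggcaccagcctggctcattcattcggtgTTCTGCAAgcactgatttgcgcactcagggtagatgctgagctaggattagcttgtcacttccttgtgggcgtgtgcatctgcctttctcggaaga
Ptchd4, chr17:42480192-42480491: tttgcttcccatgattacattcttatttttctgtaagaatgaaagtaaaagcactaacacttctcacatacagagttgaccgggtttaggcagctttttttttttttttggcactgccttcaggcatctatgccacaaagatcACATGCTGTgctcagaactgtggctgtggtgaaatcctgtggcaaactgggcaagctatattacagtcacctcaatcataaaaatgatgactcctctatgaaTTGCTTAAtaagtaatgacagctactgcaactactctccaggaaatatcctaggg
Lrp3 leading peak, chr7:35157006-35157305: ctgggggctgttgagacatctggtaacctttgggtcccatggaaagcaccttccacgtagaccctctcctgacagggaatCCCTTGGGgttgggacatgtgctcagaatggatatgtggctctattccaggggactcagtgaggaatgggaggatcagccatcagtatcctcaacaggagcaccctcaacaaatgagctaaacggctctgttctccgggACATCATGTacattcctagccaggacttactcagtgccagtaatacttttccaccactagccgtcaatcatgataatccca
Lrp3 gene body peak, chr7:35206226-35206525: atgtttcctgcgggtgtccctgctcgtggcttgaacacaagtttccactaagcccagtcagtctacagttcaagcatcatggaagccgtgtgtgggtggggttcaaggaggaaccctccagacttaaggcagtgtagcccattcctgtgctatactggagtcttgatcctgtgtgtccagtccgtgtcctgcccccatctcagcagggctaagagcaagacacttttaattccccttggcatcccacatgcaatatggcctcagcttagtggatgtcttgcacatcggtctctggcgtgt

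The NR3C core occurred in the leading peaks of Alcam, Ptchd4 and Lrp3. It stood in 33 of the 394 peaks of the 10 loci (8.38%), against 10.8% of the same windows over all 189598 peaks. The C/EBP letters were found in the leading peaks of Alcam, Ptchd4 and Gpt2, and in 24.1% of the peaks of the 10 loci against 18.5% of all peaks. EBF letters were present in the Lrp3 and Ccnd2 leading peaks, in 12.4% of the peaks of the 10 loci and in 11.2% of all peaks. No leading peak held the ESRR letters, which occurred in 0.254% of the peaks of the 10 loci and 0.632% of all peaks. The Opn3 window and the Lrp3 gene body window held none of the 4 motifs. Neither did the leading peaks of Cmip, Trhde, Tenm4 and Wfdc21, which are not printed, so the printed windows hold more matches than the rest. No 2 different motifs overlapped in a printed window.

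White levels stood above beige levels in all 19 mice with both for Opn3, Gpt2, Alcam, Cmip, Trhde, Tenm4, Lrp3 and Ccnd2. For Ptchd4 and Wfdc21 this held in 18 of 19 mice, the exceptions being day 1 cold mouse 3 for Ptchd4 and day 7 CL mouse 2 for Wfdc21. These comparisons are descriptions of the choice of genes. Over the 17985 loci with a summed white and beige mean of at least 20 CPM, the median log2 ratio of beige to white was 0.02.

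**Figure D1:**
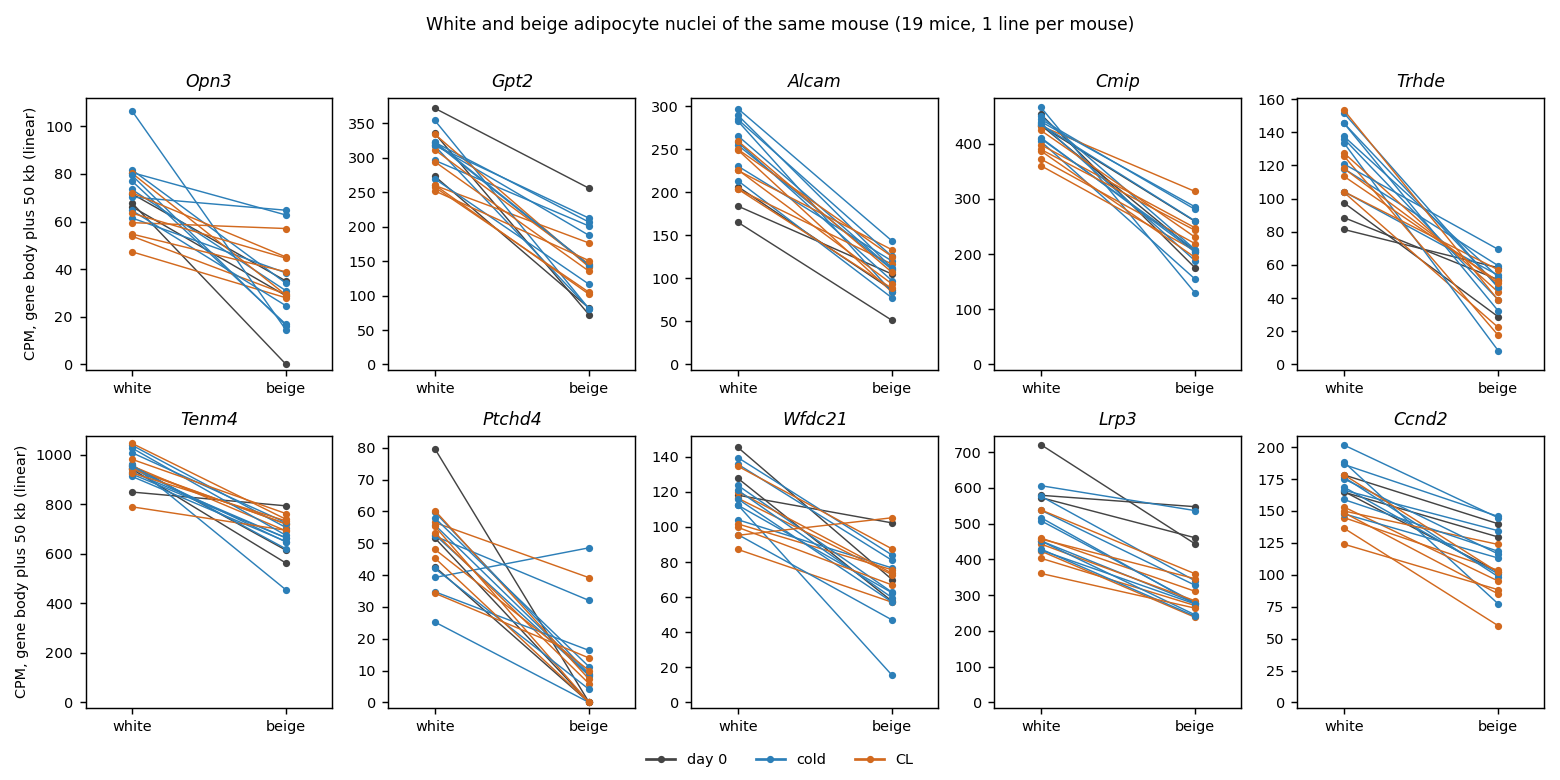
Level of each locus in white and in beige adipocytes of each mouse, in CPM (entries per 1e6 entries of the cell type in that mouse), with 1 line joining both levels of a mouse and colours for day 0, cold and CL. White levels lay above the beige level of the same mouse in 19 of 19 mice for 8 loci and in 18 of 19 for Ptchd4 and Wfdc21.

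Among the membrane and adhesion genes, Tenm4 had the highest level, 947 CPM ± 59.8 (SD, n = 21 mice) in white and 675 CPM ± 77.3 (n = 19) in beige adipocytes. The ratio was 1.40, the smallest of the 10 loci. Alcam reached 243 CPM ± 42.7 in white and 104 CPM ± 22.3 in beige adipocytes, and Lrp3 491 CPM ± 88.9 and 333 CPM ± 96.1. The Alcam ranges over mice did not overlap, with white levels of 165 to 339 CPM and beige levels of 51.2 to 143 CPM. Lrp3 ranges did overlap, with 350 to 721 CPM in white and 238 to 547 CPM in beige adipocytes. Ptchd4 had the lowest summed level, at 50.7 CPM ± 12.1 in white and 11.3 CPM ± 14.0 in beige adipocytes. Its ratio of 4.49 was the largest of the loci, but it rests on few beige entries, with 0 in the 3 day 0 mice. The sums cover 14 peaks at Ptchd4 and 134 at Tenm4, so they do not rank the loci by openness of their peaks. Opn3 had 67.7 CPM ± 16.3 and 33.6 CPM ± 16.6.

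Among the enzyme genes, Gpt2 had 302 CPM ± 34.1 in white and 144 CPM ± 51.9 in beige adipocytes, and Trhde had 119 CPM ± 21.8 and 43.5 CPM ± 15.6. Every white value of Trhde, from 81.4 to 153 CPM, lay above every beige value, from 8.40 to 69.4 CPM. The Gpt2 ranges overlapped narrowly, with the lowest white value at 252 CPM and the highest beige value at 256 CPM. Cmip was at 431 CPM ± 63.1 and 222 CPM ± 46.2, Wfdc21 at 119 CPM ± 21.1 and 69.2 CPM ± 20.0, and Ccnd2 at 159 CPM ± 27.9 and 109 CPM ± 23.5.

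The surplus in white adipocytes lay in different places at different loci. At Trhde, Alcam, Cmip and Tenm4 most of it came from peaks over the gene body and its 2000 upstream bases, with shares of 98.2%, 95.9%, 95.2% and 91.3%. At Opn3 and Ccnd2 the gene body surplus was 119% and 126% of that of the locus, because the flanks were more open in beige adipocytes. The Opn3 gene body had 51.6 CPM in white and 11.2 CPM in beige adipocytes, while its flanks had 16.1 and 22.4 CPM. Ccnd2 showed the same arrangement, with 110 and 46.8 CPM over the body and 49.7 and 62.7 CPM in the flanks. Lrp3 went the other way, with 74.1% of its surplus in the flanks and 25.9% over the body. The Lrp3 flank holds Slc7a10, and 14 of the 30 peaks were nearest to the start of Lrp3 itself.

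Promoters carried little of the surplus at several loci. The 2 peaks within 2000 bases of the Tenm4 start had 67.8 CPM in white and 67.2 CPM in beige adipocytes, and 114 of the 134 Tenm4 peaks were higher in white adipocytes. The Alcam promoter peak had 35.0 and 27.4 CPM, although 32 of the 35 Alcam peaks were higher in white. By contrast, both gene body peaks of Wfdc21 were promoter peaks, with 36.8 CPM in white and 8.21 CPM in beige adipocytes. Promoter peaks also held 43.9% of the surplus at Trhde and 34.5% at Ccnd2. Opn3 had no peak within 2000 bases of its start. All 18 Trhde peaks were higher in white adipocytes, against 10 of 17 at Opn3.

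**Figure D2:**
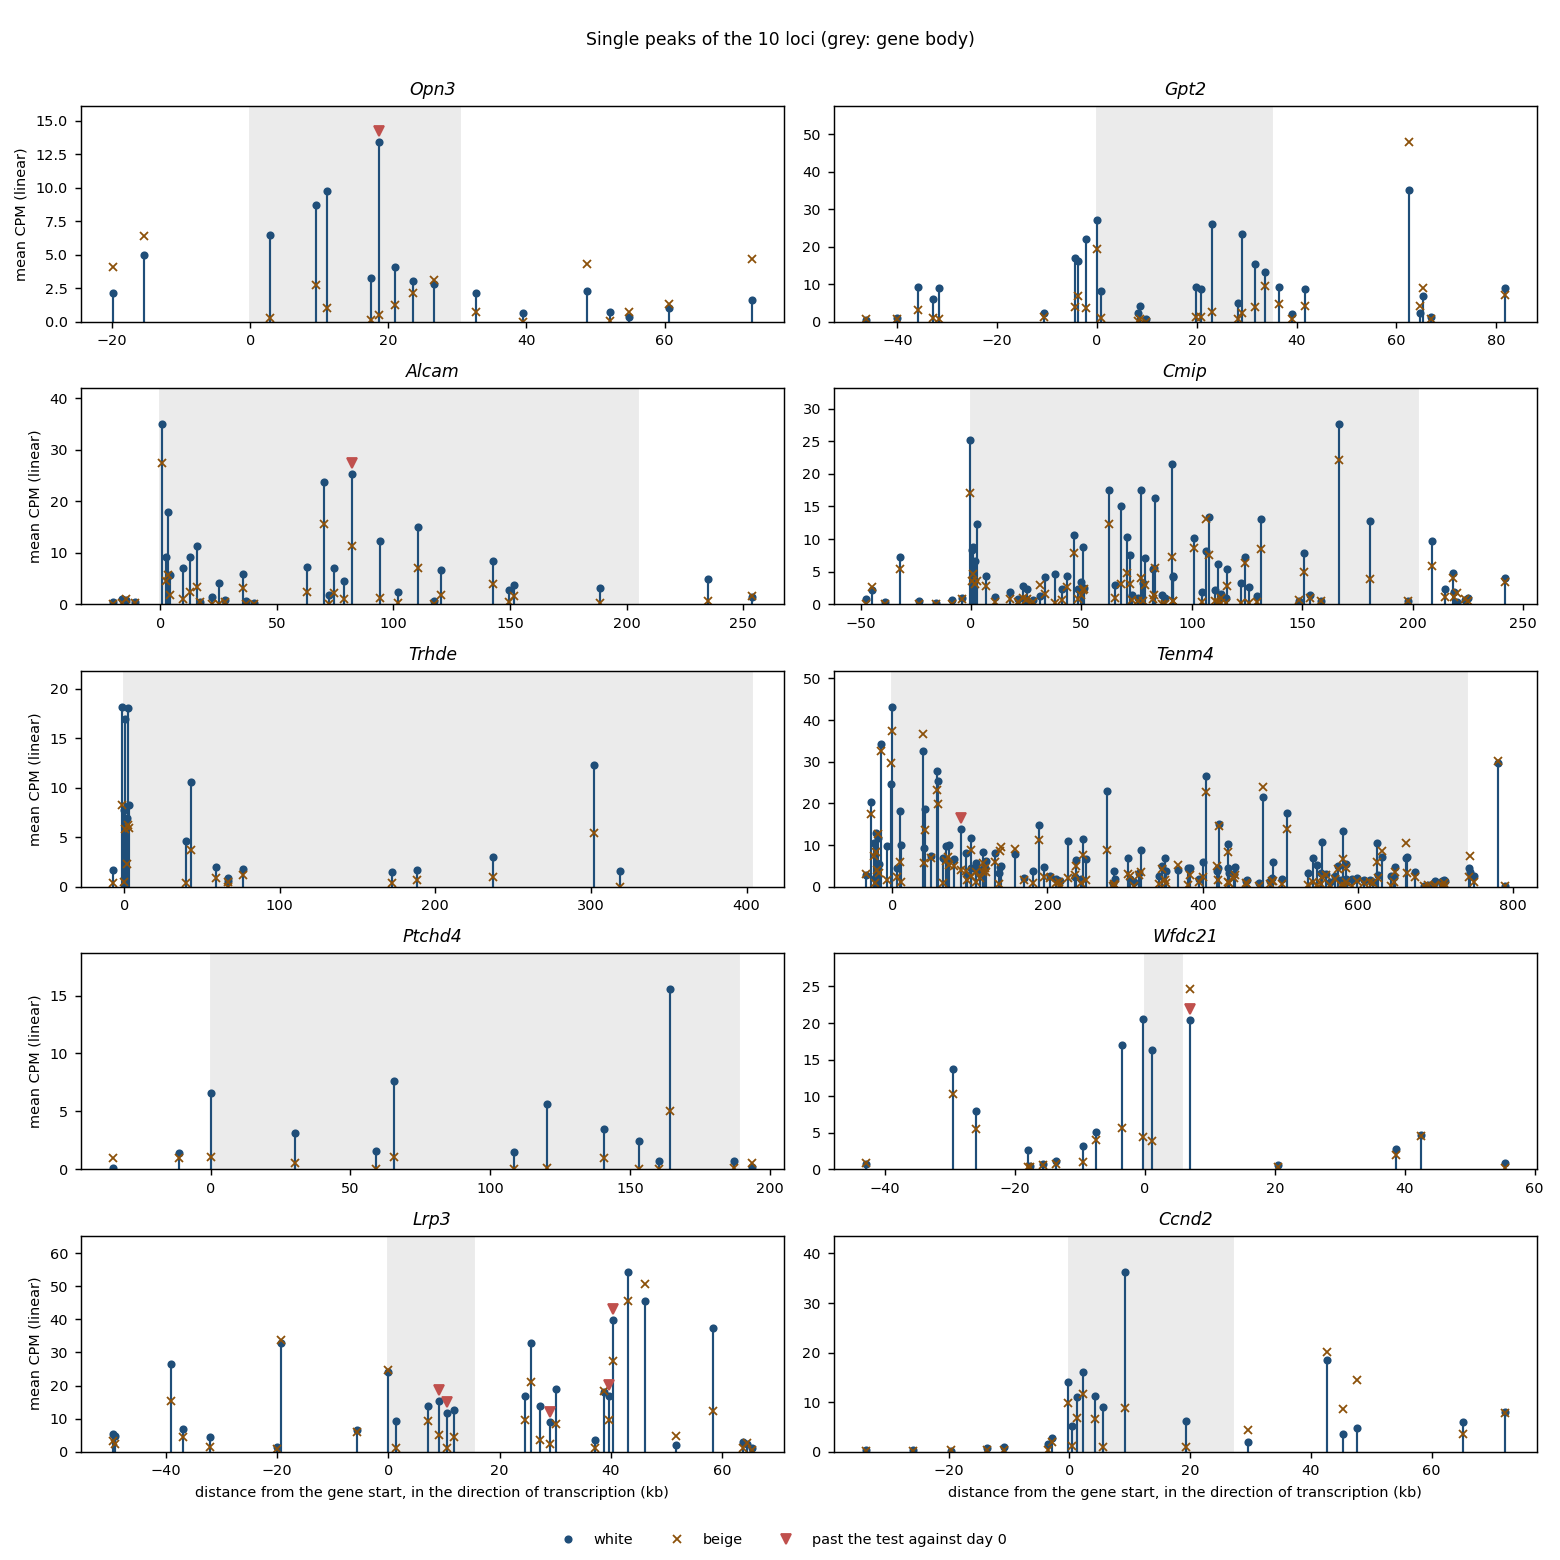
Mean level of every peak of each locus in white (points) and in beige adipocytes (crosses), in CPM, against the distance of the peak from the gene start in kb along the direction of transcription, with the gene body in grey and triangles over the 9 peaks that passed the test of cold or CL against day 0. The white surplus was spread over the gene bodies of Tenm4 and Cmip, and lay mostly in the flanks at Lrp3. At Trhde 43.9% of it lay in the 4 peaks within 2000 bases of the gene start.

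White nuclei had a median of 2561 entries over 189598 peaks. A nucleus without reads in a peak may therefore still be open there. At Opn3, 5.43% of white and 0.378% of beige nuclei had reads in the leading peak, which had 13.4 CPM ± 7.19 (n = 21) in white and 0.486 CPM ± 1.37 (n = 19) in beige adipocytes. The Gpt2 peak had 26.2 CPM in white, 2.62 CPM in beige adipocytes and 71.0 CPM in the cluster labelled VSMC. The Ccnd2 leading peak, inside an intron, had 36.3 CPM in white and 8.87 CPM in beige adipocytes, and reached 30.6 CPM in T cells. The leading peaks of Opn3, Alcam, Cmip, Trhde, Tenm4, Ptchd4 and Lrp3 were at most 20.8 CPM in any non-adipocyte cell type. At Wfdc21, whose leading peak covers the gene start, B cells had 57.7 CPM against 20.5 CPM in white adipocytes.

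Across the 12 annotated cell types, white adipocytes held the highest mean level of the Trhde, Tenm4, Ptchd4 and Lrp3 loci. Trhde stood at 119 CPM in white adipocytes and next at 44.7 CPM ± 34.9 (n = 20) in the adipocyte progenitor cluster APC1, and these means were apart by more than their SDs. The mean ± SD intervals were likewise apart for Tenm4 between white adipocytes, beige adipocytes and the progenitor cluster APC2 (497 CPM ± 85.9, n = 19). Ptchd4 in white adipocytes did not stand apart from APC1, which had 48.9 CPM ± 45.7. Lrp3 in white and in beige adipocytes overlapped in spread, and beige adipocytes were apart from macrophages at 170 CPM ± 59.5 (n = 21). The clusters were made from the same matrix, so no test was run between cell types.

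The other 6 loci were more open in some cell that is not an adipocyte. Gpt2 was highest in the cluster labelled VSMC, at 700 CPM ± 177 (n = 10), with white adipocytes second and apart by more than the SDs. Ccnd2 was highest in the 3 T cell clusters, at 356, 347 and 344 CPM, with white adipocytes at rank 5 of 12. The highest T cell peak lay at the Ccnd2 promoter, 84.3 CPM against 14.2 CPM in white adipocytes. Cmip was highest in APC2 at 607 CPM ± 85.8, and its 11 neighbouring pairs of cell types in the order all overlapped in spread. Alcam was at 273 CPM ± 108 in dendritic cells (n = 17) and 268 CPM ± 37.2 in B cells, which overlapped the white level.

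Opn3 and Wfdc21 were highest in B cells. The Opn3 locus had 234 CPM ± 29.3 in B cells and 133 CPM ± 63.7 in macrophages, against 67.7 CPM in white adipocytes. The 3 Opn3-locus peaks with the most B cell signal, at 75.0, 52.4 and 39.2 CPM, all lie over the neighbouring gene Kmo. Over the Opn3 gene body alone white adipocytes were first, with 51.6 CPM against 33.3 CPM in B cells. Wfdc21 had 211 CPM ± 38.2 in B cells over the locus, and over the gene body 59.3 CPM against 36.8 CPM in white adipocytes. Gene body windows also moved white adipocytes from rank 3 to rank 2 for Alcam, from 6 to 3 for Cmip and from 5 to 4 for Ccnd2.

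**Figure D3:**
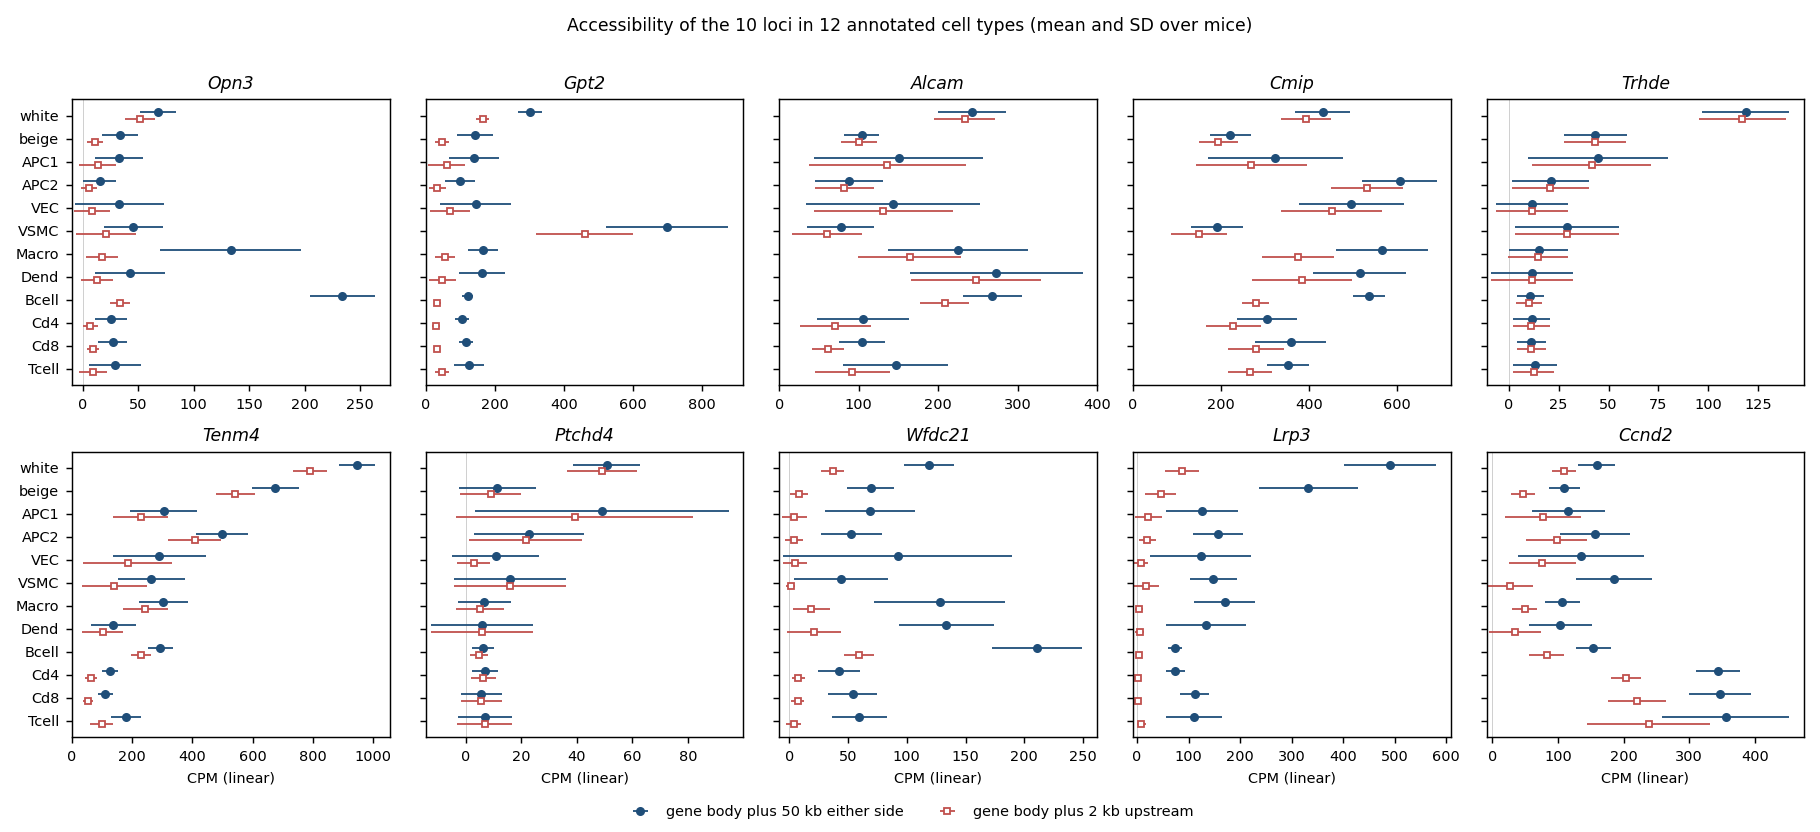
Mean level of each locus in the 12 annotated cell types, in CPM, with the SD over mice, for the gene body plus 50 kb on either side (filled circles) and for the gene body plus 2000 upstream bases (open squares). In the wider window white adipocytes were highest for Trhde, Tenm4, Ptchd4 and Lrp3, while B cells led for Opn3 and Wfdc21, T cells for Ccnd2 and the cluster labelled VSMC for Gpt2.

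Genes with the pattern most like each member were ranked by the Pearson correlation of log2(mean CPM + 1) over the 12 cell types, in gene bodies plus upstream bases. Lrp3 was most like Ankfn1 (r = 0.97) and Mogat2 (r = 0.97), Trhde like Vstm2b (r = 0.95) and Rbp4 (r = 0.95), and Tenm4 like Sec16b (r = 0.95) and Matn2 (r = 0.94). For Ptchd4 they were D630003M21Rik and Nkx2-1 (both r = 0.90), and for Gpt2 Lmod2 and Catsper3 (both r = 0.94). Ccnd2 was most like Sh2d2a and Brdt (both r = 0.91), Wfdc21 like Fam76b (r = 0.89) and Lyst (r = 0.87), and Cmip like Serpina11 (r = 0.86) and Rtl5 (r = 0.85). The highest values were lower for Alcam (Ceacam1 and Sucnr1, both r = 0.84) and Opn3 (Slc5a7 and Sdccag8, r = 0.82 and r = 0.81). The 12 points share the mice and the cell annotation, and each gene named is the closest of all genes, so the r are descriptions. Nkx2-1, Serpina11, Slc5a7, Catsper3 and Rtl5 were hardly open in white adipocytes, with gene body levels of 1.62, 2.80, 3.68, 3.94 and 4.76 CPM. The other genes named had 13.6 CPM or more.

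The response of the loci within white adipocytes was then compared between each treated group and day 0, a contrast that did not itself choose the genes. The choice did rest on white nuclei of these same mice, treated ones included, so the test is not fully independent of it. The test was edgeR's quasi-likelihood F test with Benjamini-Hochberg adjustment over 18139 loci, and all 10 members passed the filter on low counts. The 6 contrasts share the 3 day 0 mice. Alcam and Trhde rose and Lrp3 fell, and the other 7 loci passed the threshold of 0.05 in no contrast. Beige adipocytes were not tested by group. At day 0, day 7 cold and day 7 CL their Lrp3 levels were 484 CPM ± 55.8, 254 CPM ± 18.8 and 323 CPM ± 51.9 (SD, n = 3 each). Beige Alcam levels were 80.8 CPM ± 27.3, 116 CPM ± 8.38 and 109 CPM ± 16.0 in the same groups. Trhde had 46.1 CPM ± 15.4, 51.8 CPM ± 15.7 and 45.9 CPM ± 6.15 there. After 1 day of cold 0 of 10 members changed, where 0.259% of all loci did, although 2 members, Alcam and Trhde, had an unadjusted p under 0.05 by edgeR, as 10.2% of all loci did, and DESeq2 called 0 of the 10. After 3 days of cold 2 members rose, where 188 of all loci rose and 54 fell (1.33% together). After 7 days of cold 2 rose and 1 fell, where 1.56% of all loci rose and 1.46% fell (3.02% together). With CL, 1 member fell at day 1, where 1.52% of all loci fell and 3.35% changed in either direction. At day 3 CL 1 rose and 1 fell, where 4.28% of all loci rose and 1.27% fell (5.55% together). At day 7 CL 2 rose and 1 fell, where 6.56% of all loci rose and 2.25% fell (8.81% together). The median log2 fold change of the 10 members lay between -0.09 and 0.06 in these contrasts.

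Alcam, the adhesion molecule gene, had 184, 165 and 207 CPM in white adipocytes of the 3 day 0 mice. The 3 mice after 3 days of cold had 231, 297 and 283 CPM, and those after 7 days of cold had 290, 255 and 285 CPM. All 6 lay above the highest day 0 mouse. The log2 fold change was 0.49 ± 0.12 (SE) at day 3 (edgeR adjusted p = 0.0116) and 0.58 ± 0.12 at day 7 (adjusted p = 0.00263). After CL the values were 226, 204 and 204 CPM at day 3, which overlapped day 0, and 226, 250 and 260 CPM at day 7, which did not. The day 7 CL change was 0.43 ± 0.12 (edgeR adjusted p = 0.0125). After 1 day the cold mice already had 214 to 266 CPM, above all day 0 mice, but the change did not pass (log2 fold change 0.41, adjusted p = 0.165). The day 3 cold call was lost without any 1 of the day 0 mice, the lowest value being 0.43 without day 0 mouse 2, and without day 3 cold mouse 2 (0.44) or 3 (0.44). The day 7 cold call was lost without day 0 mouse 2 (log2 fold change 0.49) or day 7 cold mouse 1 (0.53). The day 7 CL call was lost without day 0 mouse 1 or 2, day 1 cold mouse 3, day 7 cold mouse 2 or any 1 of its own mice, at values of 0.34 to 0.47, and by DESeq2 its adjusted p was 0.0622.

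Trhde, the hormone-degrading ectoenzyme gene, had 81.4, 88.6 and 97.5 CPM at day 0. It reached 138, 104 and 134 CPM after 3 days of cold and 146, 121 and 136 CPM after 7 days. With CL it had 104, 126 and 128 CPM at day 3 and 118, 114 and 153 CPM at day 7. None of these 12 mice overlapped the day 0 mice. The log2 fold changes were 0.56 ± 0.14 and 0.60 ± 0.15 after 3 and 7 days of cold (edgeR adjusted p = 0.0212 and 0.0153), and 0.52 ± 0.14 and 0.54 ± 0.15 after 3 and 7 days of CL (adjusted p = 0.0145 and 0.0107). At day 1 the cold mice had 118, 152 and 146 CPM, with a log2 fold change of 0.58 and an adjusted p of 0.0970 (0.0225 in nuclei with at least 2000 entries). All 4 calls were lost without any 1 of the 3 day 0 mice, with values of 0.43 to 0.70, and each was also lost without mouse 3 of its own group or without another of its mice, mouse 2 at day 3 CL and mouse 1 elsewhere. By DESeq2 the CL calls had an adjusted p of 0.179 at day 3 and 0.0713 at day 7, and the day 3 cold value had none.

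Lrp3, the lipoprotein receptor family gene, had 721, 573 and 579 CPM at day 0. Day 7 cold mice had 426, 429 and 452 CPM, and day 3 cold mice 508, 452 and 538 CPM. The CL mice had 498, 350 and 460 CPM at day 1, 423, 403 and 443 CPM at day 3 and 361, 457 and 539 CPM at day 7. Every one of these 15 mice lay below the lowest day 0 mouse. The log2 fold change was -0.48 ± 0.12 after 7 days of cold (edgeR adjusted p = 0.0110), and -0.50 ± 0.13, -0.49 ± 0.11 and -0.42 ± 0.11 after 1, 3 and 7 days of CL (adjusted p = 0.0181, 0.00291 and 0.0107). Day 3 cold did not pass (-0.26, adjusted p = 0.250). All 4 calls were lost without day 0 mouse 1, the highest of the day 0 mice, with values of -0.46 to -0.34 and adjusted p of 0.123 to 0.224. The day 7 cold call was also lost without any 1 of its own mice, at -0.50 to -0.48. Leaving out mouse 2 of the group ended the day 1 CL call (-0.48) and the day 3 CL call (-0.47), and leaving out day 7 CL mouse 1 ended the day 7 CL call (-0.27). In nuclei with at least 2000 entries all 11 calls of Alcam, Trhde and Lrp3 passed. They also passed without day 1 CL mouse 1, the only mouse with under 30 white nuclei. By DESeq2 7 of the 11 passed, 3 did not, and Trhde at day 3 cold had no adjusted p. Over gene bodies 8 passed, and the calls lost were Lrp3 at day 1 CL (log2 fold change -0.65, edgeR adjusted p = 0.0850) and day 7 cold (-0.49, adjusted p = 0.164) and Trhde at day 3 cold (0.55, adjusted p = 0.0559).

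The remaining loci stayed without a call. Opn3 had 66.3 to 71.7 CPM at day 0 and 53.9 to 107 CPM over the day 3 and day 7 mice. The day 1 CL mice had 22.6, 64.9 and 47.3 CPM for Opn3, all below day 0, with a log2 fold change of -0.43 ± 0.23 (edgeR adjusted p = 0.347), and the lowest value came from the mouse with 23 white nuclei. Tenm4 had 849 to 957 CPM at day 0 and its log2 fold changes lay between 0.00 and 0.19. Gpt2 had 273, 372 and 335 CPM at day 0 and 252 to 294 CPM after 7 days of CL (log2 fold change -0.18, edgeR adjusted p = 0.361). The Ptchd4 day 0 mice, at 42.6, 79.7 and 51.7 CPM, spread more widely than any treated group of that locus. Cmip at day 3 CL (372, 360 and 398 CPM) lay below all day 0 mice (454, 434 and 433 CPM), yet the change of -0.15 had an adjusted p of 0.450. Ccnd2 at day 3 CL (153, 124 and 150 CPM) likewise lay below day 0 (178, 165 and 165 CPM), with -0.22 and an adjusted p of 0.313. Groups did not overlap day 0 at 3 of the 10 loci in the cold on each of days 1, 3 and 7, against 15.1%, 19.4% and 24.2% of all loci. With CL this held for 3, 4 and 4 loci at days 1, 3 and 7, against 19.8%, 24.6% and 26.2%. Wfdc21 changed by -0.28 to -0.06 on the log2 scale.

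**Figure D4:**
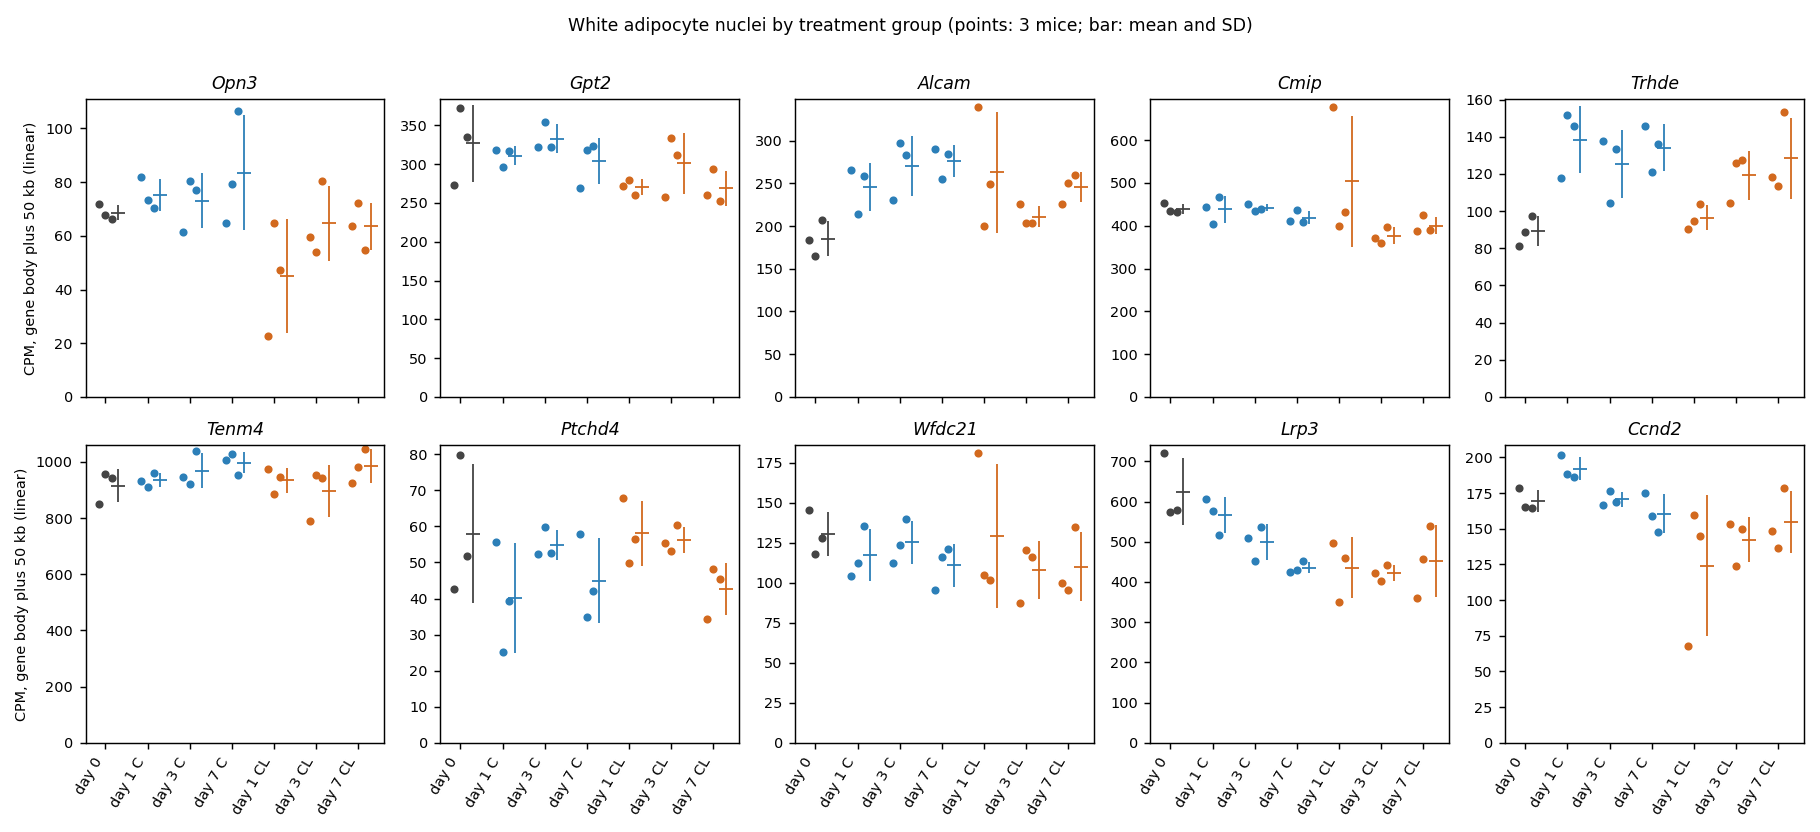
Level of each locus in white adipocytes of each mouse, in CPM, by group, with 1 point per mouse and bars for the mean and SD of 3 mice. All mice lay above the highest day 0 mouse for Alcam and Trhde after 3 and 7 days of cold and after 7 days of CL, and below the lowest for Lrp3 after 3 and 7 days of cold and in every CL group.

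**Figure D5:**
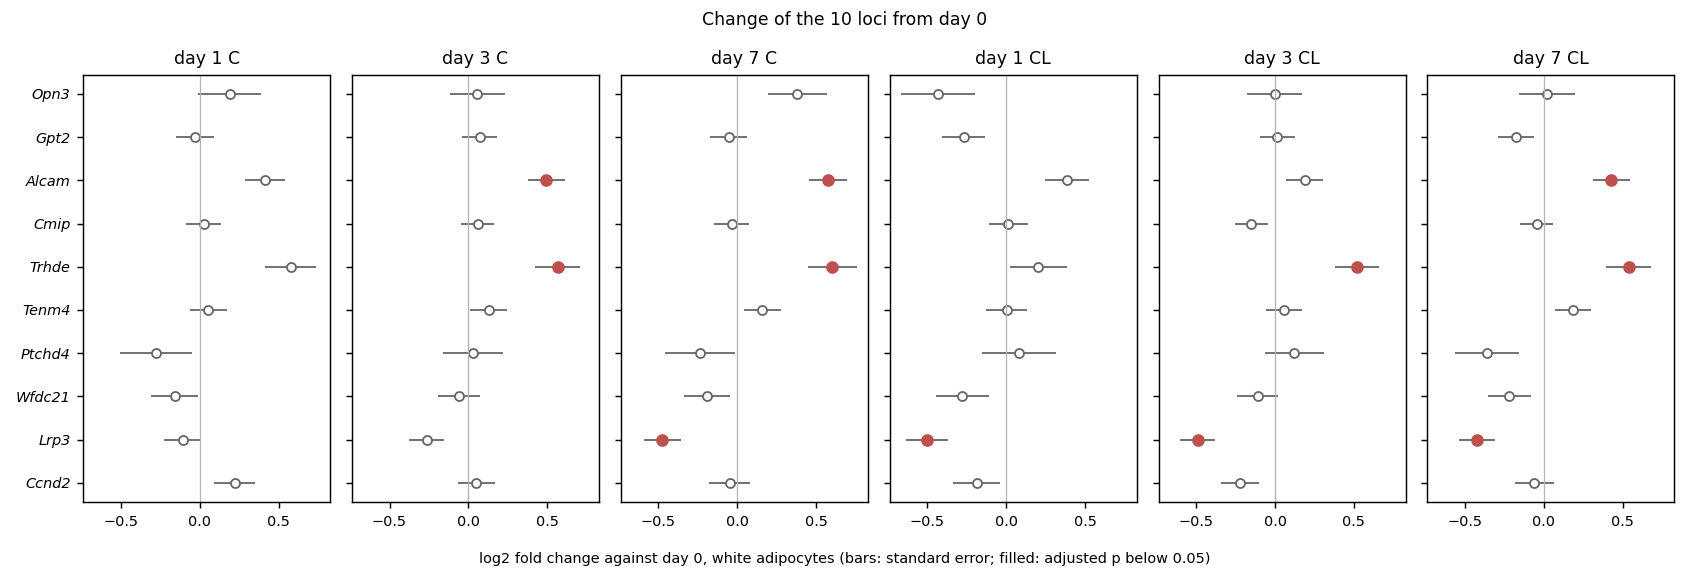
Log2 fold change of each locus in white adipocytes, treated group against day 0, with bars for the SE of edgeR's fit. The filled points, at an adjusted p under 0.05, were 3 of Alcam, 4 of Trhde and 4 of Lrp3.

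CL and cold of the same day were compared directly. No member passed the test at day 1, 3 or 7, where 0.810%, 1.65% and 0.127% of all loci did, and by edgeR 4, 4 and 1 members had an unadjusted p under 0.05, against 12.2%, 12.1% and 8.81% of all loci. The lowest adjusted p was that of Alcam at day 3, where CL (204 to 226 CPM) lay below cold (231 to 297 CPM) with a log2 difference of -0.31 ± 0.10 (edgeR adjusted p = 0.0805). Groups did not overlap at 5, 4 and 0 of the 10 loci, against 17.2%, 17.9% and 12.8% of all loci. DESeq2 called none of the 10 at any day.

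The Lrp3 gene body passed the direct test between the stimuli at day 3, where the locus did not pass. The locus was also lower with CL (403 to 443 CPM) than in the cold (452 to 538 CPM), with a log2 difference of -0.23 ± 0.11 (SE). Over the 6 gene body peaks the day 0 mice had 141, 103 and 109 CPM and the day 3 cold mice 128, 124 and 128 CPM. The day 3 CL mice had 48.9, 48.6 and 61.2 CPM, below every one of them. The direct difference between CL and cold was -1.22 ± 0.14 on the log2 scale (edgeR adjusted p = 3.5e-10), where 1.60% of 13474 gene bodies passed. It passed with each of the 9 day 0 and day 3 mice left out (log2 -1.35 to -1.11) and by DESeq2 (-1.23, adjusted p = 0.000138), 2 checks chosen after seeing the data. At day 1 the gene body means were 105 CPM ± 26.1 in the cold and 46.5 CPM ± 31.3 with CL (SD, n = 3 each). Over gene bodies 0 members passed the test between CL and cold at that day. By day 7 cold mice had 72.8, 71.2 and 95.0 CPM and CL mice 66.4, 91.4 and 79.8 CPM, which overlap.

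Single peaks were tested over all treated mice of a stimulus. Of 32515 tested peaks 0.627% changed with cold and 3.42% with CL, and of the 105 tested member peaks 1 and 8 did. The 1 peak that changed with cold was the Alcam leading peak, chr16:52371295-52372576, an intronic peak 82139 bases downstream of the gene start whose central sequence is given above. It had 7.80, 11.8 and 17.4 CPM in the day 0 mice and 24.8 to 44.5 CPM (median 34.3) over the 9 cold mice, without overlap. How many of all tested peaks lie without overlap in this contrast is not given here. The log2 fold change was 1.52 ± 0.28 (edgeR adjusted p = 0.000349), and 1.08 with an adjusted p of 0.241 without day 0 mouse 3. With CL it had 13.1 to 38.3 CPM (median 22.1, log2 fold change 0.91, adjusted p = 0.0699). DESeq2 gave 1.56 with an adjusted p of 0.158. Leading peaks were picked over all mice, treated ones included, so its place as leading peak is not independent of its level in the cold.

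All 8 member peaks that changed with CL fell, where 549 of the 32515 tested peaks rose and 562 fell. Of the 8, 5 lie in the Lrp3 locus, which held 19 of the 105 tested member peaks. The largest fall in the Lrp3 gene body was at chr7:35204754-35205119, which overlaps an exon, from 19.4 to 21.5 CPM at day 0 to 0 to 15.4 CPM over the 9 CL mice (median 6.26, log2 fold change -1.14 ± 0.31, edgeR adjusted p = 0.0158). The peak beside it, chr7:35206131-35206620, printed above, went from 24.4 to 26.6 CPM to 0 to 14.1 CPM (median 10.7, log2 fold change -1.09 ± 0.27, adjusted p = 0.00782). Neither overlapped between day 0 and CL, and both calls were lost without day 0 mouse 3 (-1.09 and -1.15). The share of all tested peaks without overlap is not given here. The 3 others lie downstream, at chr7:35174637-35175635 (-0.66), chr7:35175711-35176033 (-1.21) and, over an exon of Slc7a10, chr7:35186285-35186550 (-1.26). Slc7a10 encodes a neutral amino acid transporter that is used as a surface marker of white adipocytes. In the cold the same 5 Lrp3 peaks were also lower, by -0.55 to -0.35 on the log2 scale. None passed the test there (lowest edgeR adjusted p = 0.191), and whether the cold and CL changes differ was not tested at these peaks.

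The Opn3 leading peak also fell with CL. It had 19.4, 20.7 and 15.6 CPM at day 0, 12.1 to 27.8 CPM over the 9 cold mice and 0 to 17.3 CPM over the 9 CL mice (median 6.04). The CL change was -1.19 ± 0.34 on the log2 scale (edgeR adjusted p = 0.0249) and the cold change 0.08 (adjusted p = 0.950). Whether these 2 changes differ was not tested at the peak. A Tenm4 intron peak, chr7:96259345-96260136, fell by 1.17 (adjusted p = 0.0297), and a peak over a Heatr6 exon in the Wfdc21 locus, chr11:83753372-83754320, fell by 0.73 (adjusted p = 0.0395). In the cold these Tenm4 and Wfdc21 peaks changed by -0.42 and -0.63, neither past the test (edgeR adjusted p = 0.613 and 0.162). Whether their cold and CL changes differ was not tested. The calls at Opn3, Tenm4 and Wfdc21 and the 3 downstream Lrp3 peaks were each lost without some single mice, among the 3 day 0 mice, day 1 CL mouse 3, day 3 CL mouse 2 and day 7 CL mouse 1, with adjusted p up to 0.318, and DESeq2 called none of the 9 member peaks.

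In cells that are not adipocytes, any difference among the 7 groups was tested in B cells and in macrophages. B cells had 4.08% of 16255 loci past the test. Of 9 tested members, Alcam (edgeR adjusted p = 0.0180), Opn3 (0.0392) and Tenm4 (0.0407) passed. Alcam in B cells ranged from a group mean of 223 CPM ± 32.4 (n = 3) at day 0 to 290 CPM ± 8.47 at day 7 CL, Tenm4 from 260 CPM ± 33.0 at day 0 to 344 CPM ± 54.2 at day 1 CL, and Opn3 from 207 CPM ± 24.6 at day 1 CL to 273 CPM ± 31.6 at day 1 cold. None of the 3 passed by DESeq2, over gene bodies or in deep nuclei. In macrophages 0.0160% of 12530 loci passed, and none of the 8 tested members did (lowest unadjusted p by edgeR 0.0273 at Opn3, the 1 member under 0.05, and DESeq2 called 0 loci).

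Gene lists of adipocyte functions were read in the same contrasts against day 0. A list of 5 other genes held Car3 and Cmklr1, which the study names as enriched in white adipocytes, and Nnat, Med16 and Fads3, which it names, with Car3, for losing accessibility along its adipocyte trajectory. Of the 5, 4 fell at day 1 CL, 2 at day 3 CL and 4 at day 7 CL, where 1.52%, 1.27% and 2.25% of all loci fell. In the cold 0, 1 and 2 fell at days 1, 3 and 7, against 0.121%, 0.298% and 1.46%. Nnat, which encodes neuronatin, fell by 0.91 on the log2 scale after 7 days of cold (edgeR adjusted p = 3.2e-06) and by 0.90 after 3 days of CL (adjusted p = 7.0e-08). The median of this list was -0.29 at day 7 cold and -0.39 at day 7 CL, against 0.00 and 0.07 over all loci. These 5 genes were named by the study on the same mice, 4 of them for a fall, so their direction is not independent evidence. Trabd2d and the members Lrp3 and Tenm4 are also named by the study as enriched in white adipocytes, and Trabd2d was not read here.

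Of 12 general adipocyte genes, 5 fell at day 7 cold and 4 at day 7 CL, where 1.46% and 2.25% of all loci fell, and none rose in any contrast. Adipoq, which encodes adiponectin, fell by 0.46 (edgeR adjusted p = 0.0153) and 0.56 (adjusted p = 0.000441). Of 12 thermogenic genes, 7 rose at day 7 CL, 4 at day 3 CL and 2 at day 7 cold, where 6.56%, 4.28% and 1.56% of all loci rose, and none fell. They were Ucp1, Cidea, Dio2, Ppargc1a, Ppargc1b, Prdm16, Pank1, Slc4a4, Otop1, Pdk4, Elovl6 and Kcnk3. All but Prdm16 are named by the study, on the same mice, for accessibility in beige adipocytes or late in its trajectory. It also names Elovl6 for changes after cold and CL. Their direction is therefore not independent evidence. Dio2, which encodes the deiodinase that activates thyroid hormone, rose by 1.35 at day 7 CL (adjusted p = 0.000159), and Elovl6, a fatty acid elongase gene, by 0.96 at day 7 cold (adjusted p = 4.2e-05). Ucp1, which encodes the uncoupling protein, did not pass at day 7 CL, at -0.05, and neither did the regulators Prdm16 (-0.07) and Ppargc1b (0.01). The list counts and the genes named from the lists rest on edgeR, with no DESeq2 or leave-one-out values given here. At day 7 CL DESeq2 called 181 of all loci higher and 353 lower, against 1190 and 408 by edgeR. The summed adipocyte markers of white nuclei ranged over groups from 1329 to 1847 CPM, and the 5 B cell markers from 54.1 to 110 CPM with 106 CPM at day 0. Whether these levels bear on the changes at Alcam, Trhde and Lrp3 was not tested. How mice were assigned to barcodes is not given in the sources used here, and it cannot be told apart from the groups.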

How the data were processed

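Single-nucleus ATAC-seq of iWAT from 21 mice was deposited as 1 matrix (189598 peaks, 32552 nuclei) beside a table naming each nucleus's mouse, group and cell type. The authors aligned reads to mm10 with Bowtie2, handled alignments with SAMtools, called peaks with MACS2 and annotated clusters with Signac, and they removed doublets, shallow nuclei and nuclei with few reads in peaks before deposit. The deposited counts are 0 or 1 for every peak and nucleus, so a sum counts nuclei with reads and widely open peaks are flattened. The 4 sequencing lanes carry no group, which came from the sample names in the deposited nucleus table.

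Entries were added up for every mouse within each annotated cell type, leaving out sums over fewer than 10 nuclei. All peaks on a protein-coding gene body plus 50 kb either side (GENCODE vM21) were added. Loci, peaks and gene bodies plus 2000 upstream bases were tested with edgeR 4.0.16 in R 4.3.3 (TMM, quasi-likelihood test, minimum count 10, minimum total 15, two-sided, 7 groups in 1 fit, Benjamini-Hochberg over all features, threshold 0.05). DESeq2 1.42.0 was the other tool. Sums and motifs were made with Python 3.11.15. Alternatives were no filter on low counts, promoter peaks, gene bodies, at least 30 nuclei, nuclei with at least 2000 entries, the replicate number as a block, and leaving out each mouse in turn. The steps were tested on simulated counts.

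All 10 genes are named, with the 2 genes most like each. Not every leading peak is placed or printed. Other genes are named only from the lists given or as neighbours within a locus. The members and lists were chosen with earlier results of these data known. White against beige chose the members and carries no test. The study ran its experiments in independent batches, and mice of the same stimulus and number share barcodes, but whether a number marks a batch is not given in the sources used here. Residuals of same-numbered mice had a median correlation of 0.000151, with 1 of 63 pairs over 0.1, so the number entered only as an alternative block. These pairs and the block join mice of different stimuli and of day 0, which share 0 barcodes. Neither check therefore examines barcode sharing within a stimulus by itself. Depth limits precision, with 44198 to 3655538 entries per mouse in white adipocytes. Motif matching by position weights, transcription and the cell shares were not analysed here.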

Additional observations from a re-analysis of the deposited data

Results flagged for a closer look

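The gene body of Lrp3 differed between CL and cold after 3 days in white adipocytes, with a log2 difference of -1.22 by the direct test of the 2 stimuli. It was singled out because the levels in the same cell type, in different mice given 2 stimuli, differed at the same day by a direct test. Over the locus the difference of -0.23 did not pass. At day 7 the gene body means were 79.7 CPM in the cold and 79.2 CPM with CL. The day 3 CL mice had 52.9 CPM ± 7.19 and the day 3 cold mice 126 CPM ± 2.36 (SD, n = 3 each).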

How the results depend on the processing

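The 11 member calls against day 0 kept their direction under every alternative that gave a value. Of all 90 member fold changes, 32 turned direction under at least 1 alternative, 7 of them by DESeq2 and 11 over gene bodies, and none of these 32 was a call. The largest of them was Lrp3 at day 3 cold (-0.26), which turned over the gene body. DESeq2 lowered the number of called loci from 47 to 22 at day 1 cold, 242 to 94 at day 3 cold, 548 to 360 at day 7 cold, 608 to 266 at day 1 CL, 1006 to 332 at day 3 CL and 1598 to 534 at day 7 CL, from 147, 300 and 23 to 44, 32 and 0 for CL against cold at days 1, 3 and 7, from 204 to 0 and 1111 to 47 for cold and CL peaks, and from 664 to 77 in B cells and 2 to 0 in macrophages. It called 1 member at day 3 cold, 1 at day 3 CL and 1 at day 7 CL, in place of 2, 2 and 3, and 0 member peaks with cold or CL, in place of 1 and 8, and 0 members in B cells, in place of 3. DESeq2 calls at day 7 CL were 33.9% higher levels, against 74.5% by edgeR. Gene bodies gave 20, 116, 179, 199, 528 and 799 called genes in the same order of treated groups, 62 and 9 for CL against cold at days 1 and 7, 285 in B cells and 0 in macrophages, with 1 member at day 3 cold, 0 at day 1 CL, 1 for CL against cold at day 3 (Lrp3) and 0 in B cells. They put white adipocytes at rank 1 for Opn3, 2 for Alcam, 3 for Cmip, 2 for Wfdc21 and 4 for Ccnd2, and the log2 ratio of beige to white at -1.81 for Gpt2, -2.17 for Wfdc21, -0.92 for Lrp3 and -1.23 for Ccnd2. Promoter peaks gave -0.35 for Alcam, -0.013 for Tenm4 and -2.17 for Wfdc21. In white adipocytes the limit of at least 30 nuclei left out day 1 CL mouse 1 alone, as 1 of the leave-one-out fits did. With that limit, 91, 451 and 908 loci were called for cold at days 1, 3 and 7. For CL against cold 249, 457 and 6 were called, with 1 member (Alcam) at day 3. Nuclei with at least 2000 entries gave 31 loci at day 1 cold with 1 member (Trhde), 485 and 1 for CL against cold at days 3 and 7, 73 cold and 563 CL peaks with 2 member peaks, 37 loci with 0 members in B cells, 0 in macrophages, and ranks of 2 for Alcam and 6 for Ccnd2. Without the low-count filter 91 cold and 710 CL peaks with 4 member peaks were called. The replicate block, for numbers that may or may not mark batches, left 0 calls in macrophages and all 11 member calls against day 0. Leaving out each mouse in turn gave 4 to 91, 40 to 451, 107 to 908, 163 to 863, 243 to 1330 and 196 to 2058 loci for day 1, 3 and 7 cold and day 1, 3 and 7 CL, 23 to 249, 32 to 457 and 0 to 35 for CL against cold, 22 to 253 cold peaks, 252 to 1406 CL peaks, 325 to 776 loci in B cells and 0 to 4 in macrophages. Members called then ranged from 0 to 0, 0 to 2, 0 to 3, 0 to 1, 0 to 2 and 0 to 3 against day 0, 0 to 1 at days 1 and 3 and 0 to 0 at day 7 for CL against cold, 0 to 1 member peaks with cold and 1 to 12 with CL, 0 to 3 in B cells and 0 to 0 in macrophages. The causes were not tested, and 3 mice per group limit all of these calls.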
